A study of Equus caballus with 32 samples.

Results

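Transcripts of 8 genes known from the lining of blood vessels were followed in horse blood: VWF, PECAM1, ROBO4, CDH5, TEK and EGFL7, known as genes of endothelial cells, and CAV1 and PRKCDBP, whose proteins sit in caveolae. They were found by the gene name that the array annotation gives to a probe, which took 15 of the 43987 probes, on 17 spots, and 8 of 15071 gene symbols. The genes were picked with results from these same arrays in view, among them how well they were detected and how they differed between the groups. Their differences between the groups are therefore given as descriptions, with an error and no test.

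Venous blood of 32 Welsh Pony mares was drawn 30 days after weaning into tubes holding an RNA-stabilising reagent, and each mare gave 1 single-colour array of whole-blood RNA. The weaning was labelled brutal for 16 of the mares and progressive for the other 16. Mares are numbered here from 1 to 16 within each group, in the order of the samples, and equal numbers do not pair mares. All animals share breed, sex and sampling day. The labels say neither how either weaning was carried out nor how old the mares were, and there was no unweaned group.

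Endothelial cells form the inner wall of blood vessels and are not a usual component of drawn blood. Some of the genes they express are also active in circulating cells: megakaryocytes and the platelets they shed carry von Willebrand factor, and PECAM1 (CD31) is found on platelets and many leukocytes. Others, such as CDH5 (VE-cadherin, the adhesion protein of endothelial junctions) and TEK (TIE2, the receptor of the angiopoietins), are used as markers of the vessel wall. Caveolae are flask-shaped pits of the cell membrane built from caveolins and cavins, and they are abundant in endothelium, fat and muscle cells.

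The probes decide what each gene name stands for here, so the stretches of transcript behind the results are shown first, 5′ to 3′. Coordinates are those of the array annotation, whose build the file headers name EquCab1, and they were not checked against a genome. VWF, ROBO4 and the CAV1 probe A_69_P003378 lie in uninterrupted stretches as long as the probe, at chr6:33815717-33815776 (minus strand), chr7:30091902-30091961 (minus strand) and chr4:73229378-73229437 (plus strand).
VWF A_69_P051511: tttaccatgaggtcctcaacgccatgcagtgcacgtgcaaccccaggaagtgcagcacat
ROBO4 A_69_P069341: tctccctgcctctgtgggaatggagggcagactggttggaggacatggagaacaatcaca
CAV1 A_69_P003378: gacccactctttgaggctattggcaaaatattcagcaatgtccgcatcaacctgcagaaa

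The probes of CDH5 (chr3:16972641-16974732, plus strand), TEK (chr23:35404178-35405053, plus strand) and EGFL7 (chr25:1341564-1342282, plus strand) are 60 bases long, but their coordinates span 2092, 876 and 719 bases. By that annotation each crosses at least 1 intron and matches spliced transcript.
CDH5 A_69_P081481: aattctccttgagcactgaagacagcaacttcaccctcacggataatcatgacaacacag
TEK A_69_P027236: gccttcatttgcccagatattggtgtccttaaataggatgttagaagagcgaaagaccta
EGFL7 A_69_P014866: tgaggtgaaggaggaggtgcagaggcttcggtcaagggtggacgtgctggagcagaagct

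For the genes with overlapping probes a stretch of 30 bases is shown, with the part shared with a neighbouring probe in capitals. PECAM1 A_69_P000928 (chr11:13952962-13953021, plus strand) shares 15 bases with A_69_P000927, which shares 40 with A_69_P000926, so the PECAM1 probes are not separate measurements. The CAV1 probe Oligo-50, a 50-base oligonucleotide with no coordinates in the files, shares 43 bases with A_69_P001397. PRKCDBP had 1 probe (chr7:63143411-63143470, minus strand), of which the first bases are given.
PECAM1 A_69_P000928, last bases: cgaaacttgaatattTTGTCTTGTACAGAG
CAV1 Oligo-50, first bases: cctcgcgCAAATGAAGCGCTGGTCCAGGAG
PRKCDBP A_69_P072161, first bases: aagatcccgggagacctggggctgccgaag

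The genes fell into those whose probes were detected in most mares and those detected in few. Whether a dim probe reflects little transcript or the probe itself was not tested. VWF and all 3 PECAM1 probes stood well above background, by the scanner software's own test, on all 32 arrays. PRKCDBP did so on 15 arrays of the brutal and 12 of the progressive group, and ROBO4 on 14 and 11. EGFL7, a secreted protein of endothelial cells, did so on 5 and 2 arrays, TEK on 1 and 3, and CDH5 on 1 and 0. Of the 6 CAV1 probes, A_69_P003378 reached it on 3 and 0 arrays, Oligo-50 on 3 and 2, A_69_P001397 on 2 and 1, A_69_P001396 on 1 and 1, and A_69_P003377 and A_69_P003376 on none. Tests were limited to probes that reached this in 8 or more mares (of 16) in either group, which kept 26368 probes. Those included 6 probes of 4 of the genes: VWF, PECAM1, ROBO4 and PRKCDBP. ROBO4, with 14 arrays in the brutal group, is the nearest gene inside that limit and EGFL7, with 5, the nearest outside it.

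**Figure D1:**
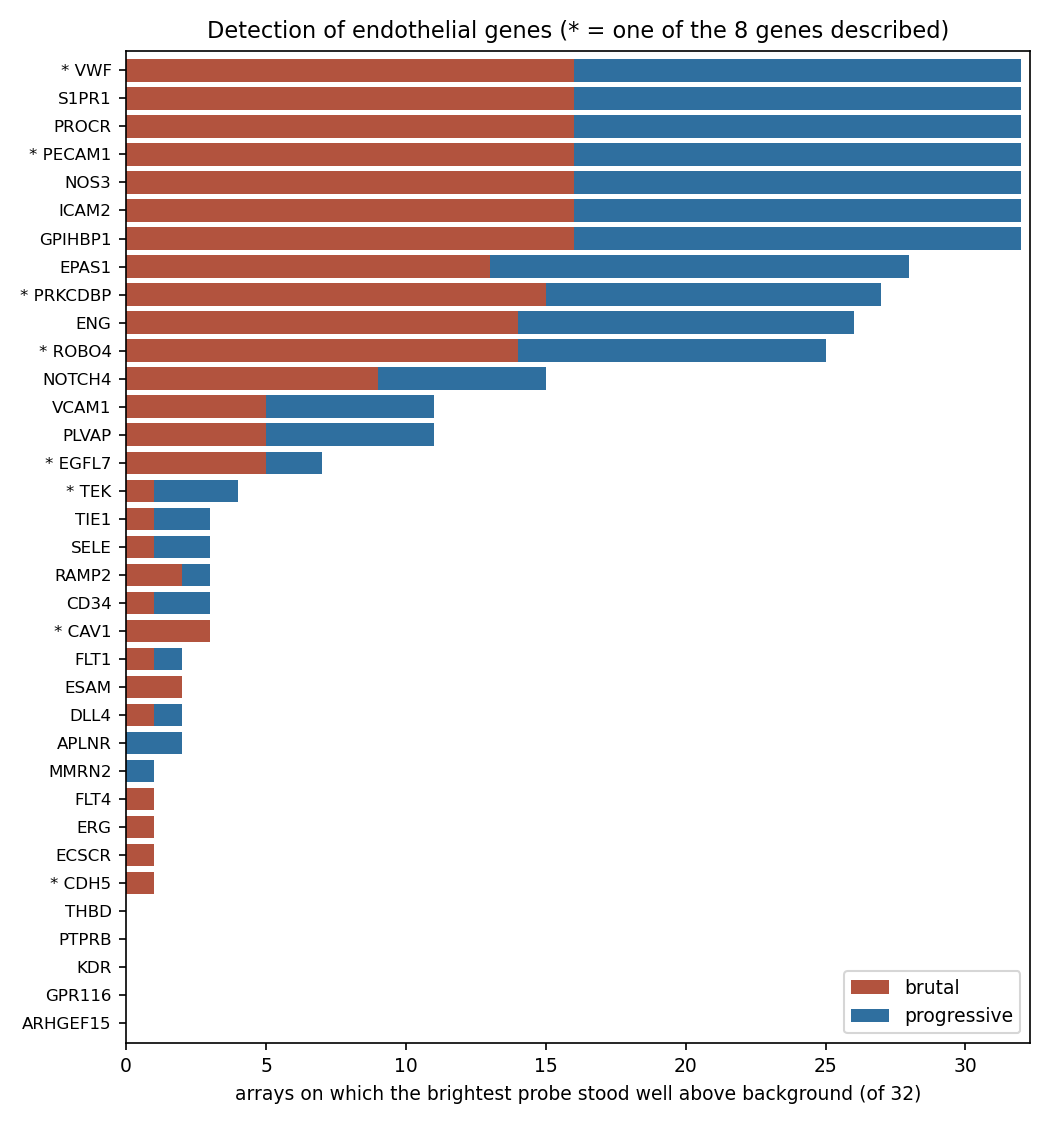
Number of arrays, of 32, on which the brightest probe of each gene stood well above background, split by weaning group, for the 8 genes (asterisks) and 27 further endothelial genes. VWF and PECAM1 reach 32, ROBO4 25 and PRKCDBP 27, while EGFL7, TEK, CAV1 and CDH5 lie between 7 and 1.

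Other endothelial genes ranged from detection on all arrays to detection on none. Of a list of 35, 27 had a probe and 8 were tested. S1PR1 (a sphingosine-1-phosphate receptor also carried by lymphocytes) and ICAM2 (an adhesion protein of endothelium and leukocytes) were above background on all arrays, as were NOS3, GPIHBP1 and PROCR. EPAS1 was so on 28 arrays, ENG on 26, NOTCH4 on 15, and VCAM1 and PLVAP on 11 each. The brightest probe of KDR, the main VEGF receptor of endothelium, was above background on 0 of 32 arrays, though another KDR probe was so in brutal 16 and progressive 16. The brightest probes of THBD, PTPRB, GPR116 and ARHGEF15 were above background on 0 arrays too. TIE1, the partner receptor of TEK, was above background on 1 and 2 arrays. CLDN5 and EMCN had no probe by those names. Each array showed between 0 and 5 of the 19 dim genes of the list above background in any of their probes. Among all 17619 untested probes of the array design, between 2.97 and 18.3% per array were above background, with a median of 5.76%. The latter is a share of probes and not of genes.

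The share of spots well above background was higher on every array of row 1 of the slides (59.8 to 66.0%) than on any of row 2 (53.0 to 59.6%), and each row held 8 mares of either group. Outlier spots numbered 6 to 180 per array, except for 851 on progressive 16. The signal at the 75th percentile lay between 339.5 and 646 intensity units. All markers listed for neutrophils (15), monocytes (11), T cells (14) and B cells (9) that had a probe could be tested. Each of the 4 slides carried 4 brutal and 4 progressive mares. Slide was tested as a batch: limma called 2 of 26368 probes (0.00758%), and the adjusted p of the 6 probes of the genes ran from 0.84 to 0.985. For array row on the slide limma called 0 of 26368 probes (0%), and the adjusted p of the 6 probes ran from 0.833 to 0.989. The log2 level of VWF differed between rows by -0.50 (row 2 minus row 1, interval -1.05 to 0.05), and the other tested probes of the genes by 0.01 to 0.29. The probes of CAV1, CDH5 and EGFL7, too dim to be tested, were higher in row 2, each by more than 0.50. That of TEK, also untested, was lower in row 2 by more than 0.29.

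Levels below are log2 signals relative to each array's 75th percentile, so 0 is the level of that percentile, and they are compared between mares and not between probes. A difference is progressive minus brutal, with limma's standard error (SE) and 95% interval. In bulk blood, fewer cells of a type and less RNA per cell cannot be told apart. With Benjamini-Hochberg adjustment limma called 0 of 26368 probes (0%) between the groups, hence 0 of the 6 probes of these genes, and the smallest adjusted p of any probe was 0.996. Without adjustment 726 probes (2.75%) had a p under 0.05, and 496 of them (1.88% of all tested) were lower after progressive weaning. Of all 9386 genes tested 0 (0%) were called, and 5465 (58.2%) lay lower after progressive weaning, with a median difference of -0.02.

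VWF encodes the large multimeric protein that tethers platelets to injured vessel walls. Its level in the brutal group ran from -1.47 through a median of -0.38 to 1.31, and in the progressive group from -1.96 through -0.91 to 0.92. The ranges overlapped widely, and 13 of the 16 progressive mares lay below the brutal median. The means were -0.25 ± 0.82 (SD, n = 16) and -0.81 ± 0.77 (SD, n = 16), a difference of -0.56 (SE 0.27, interval -1.11 to -0.013), or a ratio of 0.678.

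The VWF difference was not the same on every slide. On slides 1, 3 and 4 it was -0.87, -0.84 and -1.08, and on slide 2 it was 0.54, with the progressive mares higher. Without slide 2 it was -0.93. Over all mares the highest VWF level was 9.64 times the lowest, and the standard deviation of the probe stood at percentile 96.5 of all tested probes.

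PECAM1, the homophilic adhesion protein at contacts between endothelial cells and on leukocytes and platelets, was close to level between the groups. On its brightest probe, A_69_P000928, the brutal group ran from -1.26 through -0.36 to 0.19 and the progressive group from -1.06 through -0.45 to -0.04. The groups overlapped over nearly the whole range. The means were -0.40 ± 0.42 (SD, n = 16) and -0.47 ± 0.26 (SD, n = 16), a difference of -0.07 (SE 0.12, interval -0.32 to 0.17). The other two probes gave differences of -0.098 (interval -0.30 to 0.10) and -0.00068 (interval -0.22 to 0.22). The latter has no direction, being 0.022 when the 75th percentile was taken over spots detected on all arrays. Over the 32 arrays, after the mean of each group on each slide was removed, the 3 probes correlated with each other at r from 0.717 to 0.908.

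ROBO4 encodes an endothelial member of the roundabout family of guidance receptors, known for stabilising vessels. Its brutal values ran from -4.97 through -4.11 to -3.67 and its progressive values from -5.11 through -4.41 to -3.97. Within these overlapping ranges 14 of 16 progressive mares lay below the brutal median. The means were -4.23 ± 0.36 (SD, n = 16) and -4.49 ± 0.32 (SD, n = 16), a difference of -0.25 (SE 0.12, interval -0.50 to -0.013). The probe stood near the limit of detection: it was above background on 16 of 16 arrays in row 1 of the slides and on 9 of 16 in row 2, while its level differed between rows by 0.01 (interval -0.23 to 0.25). By slide the group difference was 0.17, -0.37, -0.66 and -0.17, and without slide 3 it was -0.12. It was -0.14 with normexp background correction and -0.13 in the authors' series table.

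**Figure D2:**
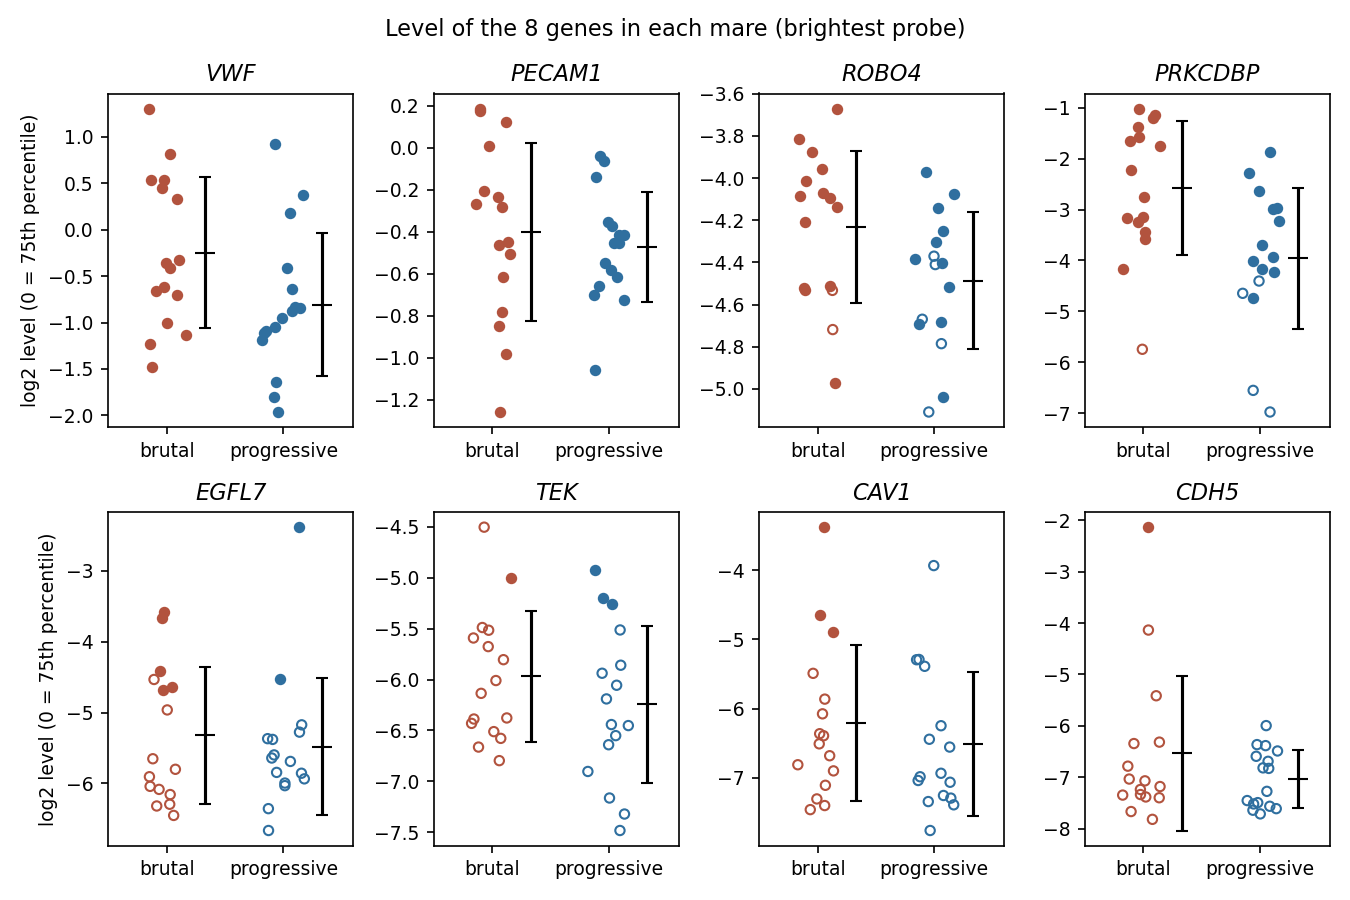
Log2 level of the brightest probe of each of the 8 genes in every mare, by weaning group, with filled points where the probe stood well above background, open points where it did not, and the mean ± SD (n = 16) beside each group. Axes differ between panels. PRKCDBP spreads from -6.98 to -1.02 and VWF from -1.96 to 1.31, and the points of CAV1, CDH5, TEK and EGFL7 are mostly open.

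PRKCDBP, the gene of cavin-3, a coat protein of caveolae, varied widely between mares. Its levels in brutal mares ran from -5.75 through -2.49 to -1.02 and in progressive mares from -6.98 through -3.96 to -1.87. On the 27 arrays where it was above background it lay between -4.74 and -1.02. The 5 other arrays, 1 brutal and 4 progressive, read -6.98 to -4.40, values that background can set. The groups overlapped, with 14 of 16 progressive mares below the brutal median and 14 of 16 brutal mares above the progressive median.

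The means of PRKCDBP were -2.58 ± 1.32 (SD, n = 16) and -3.96 ± 1.38 (SD, n = 16), a difference of -1.38 (SE 0.46, interval -2.31 to -0.45) and a ratio of 0.384. The difference had the same sign on each slide: -1.12, -1.61, -0.72 and -2.07. Its lowest arrays were not above background, and its size depended on how background was treated: it was -0.67 with normexp correction and -0.88 in the authors' series table.

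**Figure D3:**
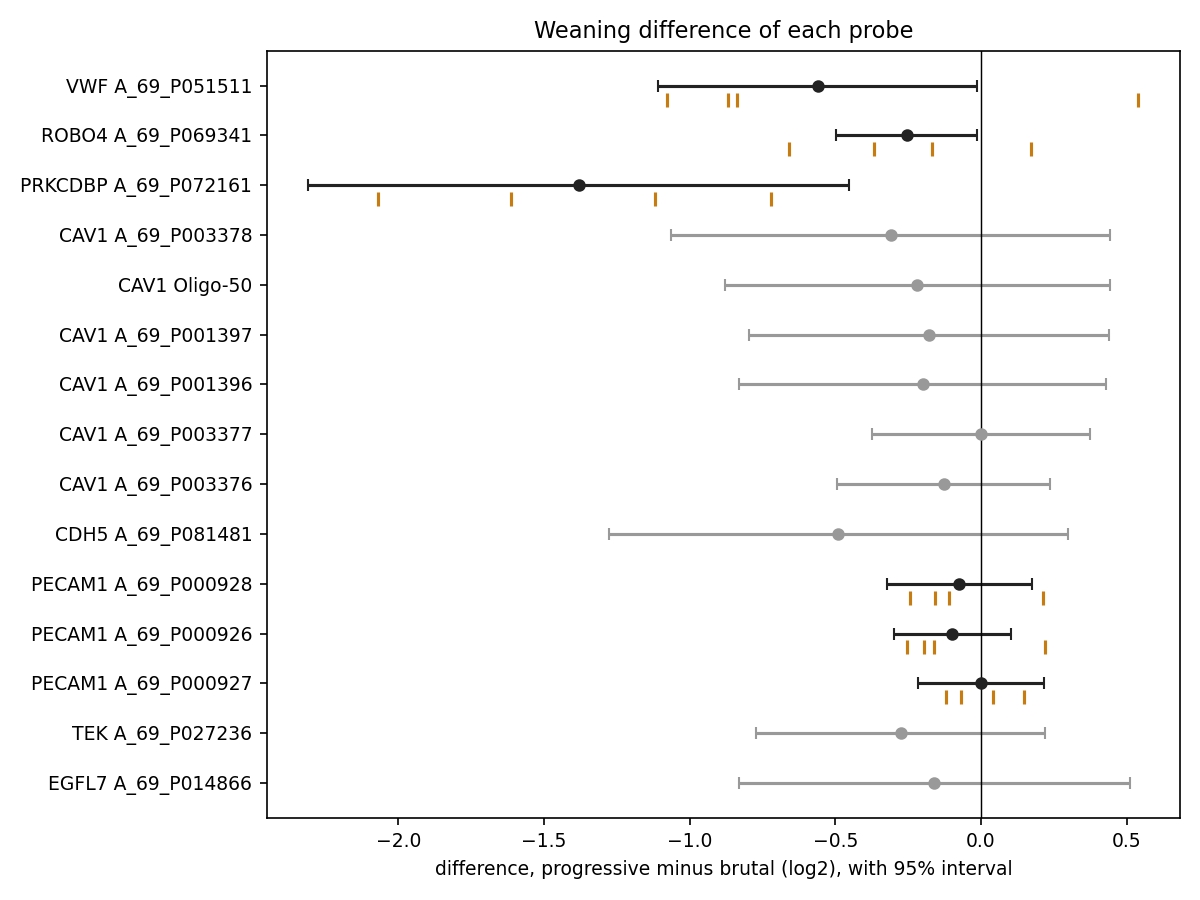
Difference between the groups, progressive minus brutal on the log2 scale, for each of the 15 probes with its 95% interval (black: tested; grey: too dim to be tested), and the differences within the 4 slides as short strokes under the tested probes. PRKCDBP stands at -1.38, VWF at -0.56 and ROBO4 at -0.25. The intervals are not adjusted for the number of probes or for the choice of the genes. After adjustment limma called no probe between the groups.

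The other tested genes of a list for caveolae did not share a large difference, but none of the other cavin genes could be tested. Besides CAV1 and PRKCDBP, 13 genes listed for caveolae had a probe and 7 were tested, with 0 called, 6 lower after progressive weaning and a median difference of -0.09. CAV2, the partner of CAV1 in the caveolin oligomer, was above background on all arrays and differed by -0.08 (interval -0.39 to 0.23). FLOT1, a flotillin of membrane rafts, averaged 2.44 ± 0.24 and 2.33 ± 0.20 (SD, n = 16 each), and EHD1, a membrane-shaping ATPase, 1.82 ± 0.37 and 1.55 ± 0.43 (SD, n = 16 each). PTRF, the gene of cavin-1 without which caveolae do not form, was above background on 0 arrays of either group, and SDPR, that of cavin-2, on 4 and 4. SDPR, too dim to be tested, differed by -0.61.

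CAV1, the main structural protein of caveolae, was above background on 6 arrays in at least 1 of its probes. With 6 probes it had more occasions for this than a gene with 1 probe. On the median array 5.76% of all untested probes were above background. That is a share of probes on an array, while the counts of CAV1 here and of CDH5, TEK and EGFL7 below are numbers of arrays per gene. In the brutal mare numbered 4 the probes A_69_P003378, Oligo-50, A_69_P001397 and A_69_P001396 were above background together, at -4.65, -4.32, -3.91 and -3.85. In the progressive mare numbered 6 it was Oligo-50, A_69_P001397 and A_69_P001396, at -5.13, -5.19 and -4.85. Only Oligo-50 and A_69_P001397 of these probes overlap by more than 6 bases, sharing 43. By the annotation A_69_P001397 (chr4:73231223-73231282) and A_69_P001396 (chr4:73231284-73231343) lie next to each other. Oligo-50, A_69_P001397 and A_69_P001396 thus sample a single region of the transcript, and A_69_P003378 lies apart from it. Brutal 13 had A_69_P003378 (-4.89) and A_69_P001397 (-4.80) above background, and brutal 15 had A_69_P003378 (-3.37) and Oligo-50 (-5.46). In brutal 8 and progressive 8 only Oligo-50 was above background. The highest value of A_69_P003378, -3.37, was in brutal mare 15, while A_69_P003377, which shares 40 of its bases, was not above background on any array. The next highest value of A_69_P003378, -3.93 in progressive mare 15, did not stand well above background. Differences between the groups ran from -0.31 to 0.0008 over the 6 CAV1 probes, between values that were mostly not above background.

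CDH5 was above background in a single mare, brutal 12, at -2.13, against medians of -7.12 and -7.05 in the brutal and progressive groups. None of CAV1, TEK or EGFL7 was above background in that mare. The difference of the group means, -0.49 (interval -1.28 to 0.30), is thus between values that were nearly all at background.

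TEK was above background at -5.01 in brutal 5 and at -5.20, -4.92 and -5.26 in progressive 1, 6 and 9, all in row 1 of the slides. Of all untested probes, 4.58 to 18.3% were above background on arrays of row 1 and 2.97 to 6.05% on those of row 2. Its means differed by -0.28 (interval -0.77 to 0.22). Among the other genes of vessel signalling, 22 had a probe and 8 were tested, with 0 called, 5 lower and a median of -0.04. They include VEGFB, a VEGF family ligand (3.35 ± 0.35 and 3.34 ± 0.28, SD, n = 16 each), and DOK2, an adaptor that binds TEK (0.92 ± 0.31 and 0.68 ± 0.26, SD, n = 16 each). ANGPT1, the activating ligand of TEK, was above background on 7 and 9 arrays and differed by 0.39 (interval -0.14 to 0.92).

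EGFL7 was above background in 5 brutal mares, between -4.68 and -3.58, and in progressive 10 and 16, at -4.53 and -2.38. Of the 6 arrays with CAV1 above background, brutal 4, 8, 13 and 15 also had EGFL7. In all, 5 arrays showed at least 2 of the 4 dim genes, brutal 4, 8, 13 and 15 and progressive 6. Whether that is more than among other dim genes was not tested. The EGFL7 means differed by -0.16 (interval -0.83 to 0.51).

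Genes of endothelial identity, junctions and haemostasis were counted beside the 8 genes. Of the 8 tested endothelial genes 3 lay lower after progressive weaning, with a median difference of 0.03, and of 9 tested junction and adhesion genes 5 did, with a median of -0.02. S1PR1 averaged 1.33 ± 0.29 and 1.37 ± 0.24 and ICAM2 0.76 ± 0.29 and 0.61 ± 0.43 (SD, n = 16 each). Among the junction genes PTPN6, a phosphatase that binds PECAM1, averaged 3.78 ± 0.24 and 3.64 ± 0.26, and CTNNB1, the catenin on the cadherin tail, 3.47 ± 0.18 and 3.47 ± 0.19 (SD, n = 16 each). Of 5 tested genes of a list for VWF and haemostasis, which also holds PROCR and PROS1 of the protein C pathway, 4 lay lower, with a median of -0.30. They include SELP, the P-selectin stored with VWF (3.91 ± 0.58 and 3.61 ± 0.68, SD, n = 16 each), and GP9, part of the platelet receptor for VWF (-0.20 ± 0.75 and -0.55 ± 0.57, SD, n = 16 each). Of the 4 lower genes of the VWF and haemostasis list, all but PROS1 are also in the platelet list. PROS1 differed by -0.71 (interval -1.06 to -0.35), and PROCR, which lay higher, by 0.05 (interval -0.37 to 0.48). None of the genes of these lists was called. Of 6 tested genes of mural and connective tissue cells 5 lay lower, with a median of -0.12. The collagen gene COL1A1 averaged 2.23 ± 0.26 and 2.16 ± 0.33, and ACTA2, smooth muscle actin, 0.80 ± 1.70 and 1.23 ± 0.43 (SD, n = 16 each).

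Of 16 tested platelet genes 0 were called between the groups, and 14 lay lower after progressive weaning, as VWF did, with a median of -0.29. ITGA2B, the platelet integrin chain, differed by -0.40 (interval -0.88 to 0.07), PF4, platelet factor 4, by -0.37 (interval -0.69 to -0.05), and GNG11, a G protein subunit, averaged 4.68 ± 0.37 and 4.23 ± 0.51 (SD, n = 16 each). Summed over the list, in multiples of the 75th percentile signal, the platelet level ran from 39.8 through 53.6 to 68.8 in the brutal group and from 21.8 through 40.3 to 67.5 in the progressive group. All 22 platelet genes with a probe were above background on at least 1 array, but ITGB3, the partner chain of ITGA2B, on 0 and 3 arrays and PPBP, a platelet chemokine, on 0 and 1. With platelet, erythroid, neutrophil and T cell marker levels as covariates in the fit, the VWF difference was -0.17, that of ROBO4 -0.19 and that of PRKCDBP -1.14. The marker levels came from the same arrays, and what lay behind these smaller differences was not tested.

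Erythroid markers (5 of 7 genes lower, median -0.39) and neutrophil markers (13 of 15 lower, median -0.24) also lay lower, monocyte markers less so (8 of 11, median -0.07). T cell (8 of 14, median -0.03) and B cell markers (3 of 9 lower, median 0.03) were close to level, and 9 of 10 housekeeping genes lay lower with a median of -0.06. The haemoglobin chain HBB averaged 6.58 ± 1.83 and 6.19 ± 1.44 (SD, n = 16 each), and ALAS2, the first enzyme of red cell haem synthesis, differed by -0.66. The 2 highest genes differed by -0.14 (S100A12) and -0.24 (S100A9) in the neutrophil list, by -0.29 (LYZ) and -0.07 (FCN1) in the monocyte list and by -0.05 (CD6) and 0.01 (CD3D) in the T cell list. In the housekeeping list they differed by -0.06 (B2M) and -0.05 (RPLP0), and BANK1 of the B cell list differed by -0.02. No gene of these lists was called, and their part in the differences of the 8 genes was not tested.

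Variation between mares within the groups does not use the weaning contrast and was tested. Levels were centred on the mean of each group on each slide, and p-values came from 100000 relabellings of mares within group and slide, adjusted over the relations of a family. None of the 6 pairs of the 4 tested genes passed the threshold. The highest was ROBO4 with PRKCDBP (Pearson's r = 0.290, Spearman's rho = 0.323, n = 32, raw permutation p = 0.116, adjusted permutation p = 0.565), with r = 0.281 without the 2 farthest mares. With normexp background correction this pair passed, at r = 0.760 (adjusted permutation p = 0.0003). VWF and PECAM1 correlated at -0.127 over all mares (rho = -0.045, raw permutation p = 0.539, adjusted permutation p = 0.688), at -0.544 within the brutal and 0.511 within the progressive group. The difference between those coefficients was not tested.

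VWF followed the platelet markers. Its level correlated with the mean z value of the 16 platelet genes at r = 0.660 (rho = 0.653, n = 32, raw permutation p = 0.00058, adjusted permutation p = 0.0139 over 24 relations of 4 genes with 6 blood cell marker lists). Without the 2 mares farthest from the median the coefficient was 0.607. It was 0.622 in the brutal and 0.697 in the progressive group (raw permutation p = 0.0451 and 0.00656, n = 16 each), neither past the threshold after adjustment within the group (adjusted permutation p = 0.521 and 0.157). No other relation of the 24 passed over all mares with these values. With normexp correction 4 passed: this one (0.619), PECAM1 with B cell markers (0.528), and ROBO4 (0.705, against 0.269 here) and PRKCDBP (0.608) with erythroid markers. With the same platelet level PECAM1 gave -0.145 (rho = -0.114), ROBO4 0.144 (rho = 0.145) and PRKCDBP 0.219 (rho = 0.174), with adjusted permutation p of 0.769, 0.782 and 0.551.

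**Figure D4:**
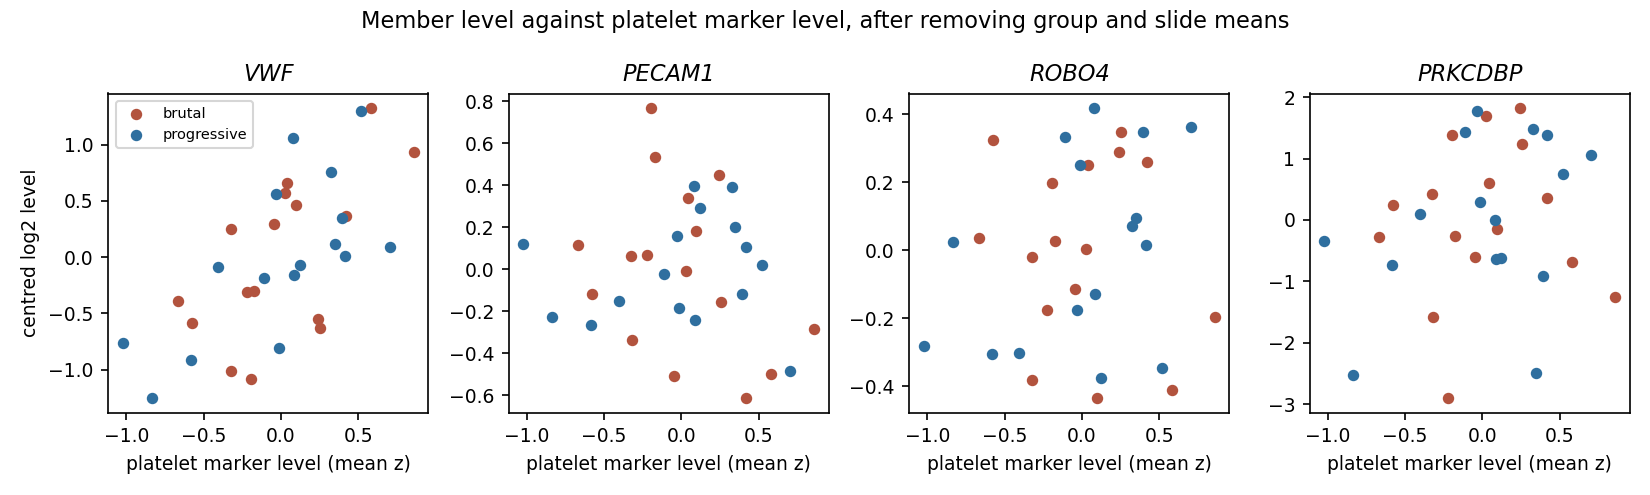
Centred log2 level of VWF, PECAM1, ROBO4 and PRKCDBP against the platelet marker level (mean z value of 16 genes) in 32 mares, after the mean of each group on each slide was removed. VWF rises with the platelet level in both groups (r = 0.660), while the clouds of the other genes show coefficients from -0.145 to 0.219.

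PECAM1 came next, with the B cell markers: r = 0.501 (rho = 0.471, n = 32, raw permutation p = 0.00648, adjusted permutation p = 0.0778), and 0.541 without the 2 farthest mares. In the brutal group the coefficient was 0.701 (adjusted permutation p = 0.0372, n = 16) and in the progressive group 0.0917 (adjusted permutation p = 0.842, n = 16), a difference that was not tested. PRKCDBP and the erythroid markers gave 0.497 (rho = 0.439, n = 32, raw permutation p = 0.0297, adjusted permutation p = 0.238), and 0.342 without the 2 farthest mares.

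The genes most like each of the 4 in level over the 32 mares, after the same centring, were looked up among 9228 other named genes, as a description. All points share their array. For VWF they were TIMP1, an inhibitor of metalloproteinases (r = 0.870), ITGA2B (0.861) and ECM1, an extracellular matrix protein (0.784). For PECAM1 they were MKKS, a chaperonin-like protein (0.668), YBX1, an RNA-binding Y-box protein (0.651), and PLAC8A (0.646). For ROBO4 they were TPSG1, a tryptase (0.691), SLU7, a splicing factor (0.691), and IGFBPL1 (0.679). For PRKCDBP they were RPL3, a protein of the large ribosomal subunit (0.737), S100A4, a calcium-binding protein (0.716), and TXNDC17, a thioredoxin-like protein (0.714). The next 7 for PRKCDBP, named after their values were seen, include the ribosomal protein genes RPL35 (0.710), RPSA (0.706) and RPS14 (0.700). With the mean level of the 8 tested endothelial genes, VWF correlated at 0.454, ROBO4 at 0.399, PRKCDBP at 0.252 and PECAM1 at -0.048. With that of the 6 tested mural and connective tissue genes the coefficients were 0.398, 0.510, 0.360 and 0.206 in the same order.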

How the data were processed

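Spot intensities in the deposited scanner files had been background-subtracted by Agilent Feature Extraction, version 10.10.1.1, per the file headers. The authors' deposited series table holds log2 values with medians near 8.40 on every array, by a normalisation not given in the sources used. The 1319 control spots of 62976 were dropped, and so were 2483 outlier spots over all arrays, none of them of the 8 genes. Processed signals were divided by the array's 75th percentile, turned to log2 and averaged per probe. Groups were compared in a two-sided limma fit (version 3.58.1, R 4.3.3, lmFit then eBayes) that held no other term, at a Benjamini-Hochberg adjusted p of 0.05; the script was tested on simulated data. Correlations used Python 3.11.15 and scipy 1.17.1. Probes of 4 of the 8 genes passed the detection limit.

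The genes and the 13 lists were chosen with earlier results of these data known. Named were the 8 genes, the 3 most correlated genes of each tested one, the 2 of each list with the highest mean level, and CAV2, TIE1, KDR, CLDN5, EMCN, ANGPT1, ITGA2B and PF4. A gene that this rule names is not reported here. Others were chosen after their values were seen: NOS3, GPIHBP1, PROCR, THBD, PTPRB, GPR116, ARHGEF15, PTRF, SDPR, EPAS1, ENG, NOTCH4, VCAM1, PLVAP, PROS1, ITGB3 and PPBP. Alternatives were 2 background corrections, 3 scalings, the series table, slide and row terms, filters on dim probes, array weights, covariates and each mare left out.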

Additional observations from a re-analysis of the deposited data

How the results depend on the processing

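No probe was called between the groups under any alternative for which calls were counted, with each of the 32 mares left out included; within a single slide differences were computed without calls. Leaving out 1 mare at a time, the VWF difference ran from -0.68 to -0.46, that of PRKCDBP from -1.59 to -1.18 and that of ROBO4 from -0.30 to -0.21, and the median of the 4 genes, -0.41, from -0.46 to -0.36. That median was -0.18 with blood cell marker covariates, -0.26 on slide 2 alone and -0.69 on slide 3 alone. The PECAM1 difference on its brightest probe was 0.013 with array weights. A filter of 28 of 32 arrays removed ROBO4 and PRKCDBP. The number of probes with a slide effect, 2, was 8 with quantile normalisation, 7 with the 75th percentile over detected spots, 8 with normexp correction and 4 without progressive 16. With normexp, 1 of 6 gene pairs and 4 of 24 marker relations passed, against 0 and 1. The cause was not tested. Coefficients near 0 changed sign: VWF with PRKCDBP was -0.0226 with normexp and -0.0504 in the series table, and PECAM1 with platelets 0.0256 with normexp. A pair of alternatives was added after seeing the data: the 5 arrays with at least 2 dim genes left out (VWF -0.73, ROBO4 -0.22, PRKCDBP -1.20), and array row removed in the correlations. No paired analysis was possible because mares carry no number or label shared across the groups. Dim probes have levels set mostly by background, and 16 mares a group limit the precision.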
